A study of Mus musculus with 24 samples.

Results

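NRF2, encoded by Nfe2l2, is a transcription factor that switches on genes of the antioxidant defence, and KEAP1 is the adaptor protein that holds NRF2 in the cytoplasm and marks it for degradation in unstressed cells. The genes described here are Nfe2l2, Keap1 and 6 textbook targets of NRF2, namely Gclc, Gclm, Slc7a11, Hmox1, Nqo1 and Srxn1. They were taken from the deposited count table by gene symbol and make up 8 of its 17696 genes. All 8 were present, and in no library did any of them have fewer than 19 assigned reads.

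Bulk RNA-seq was performed on MIN6 cells, a mouse insulinoma line used as a β cell model, in 24 libraries that fall into 6 groups of 4. Scr cells carried a lentiviral scrambled hairpin control (miRZip-000), ZIP cells carried an anti-sense miR-146a-5p hairpin in the same vector backbone (miRZip-146a), and OE cells carried a vector overexpressing miR-146a (shMIMIC) with another backbone and another fluorescent reporter, copGFP in Scr and ZIP and TurboRFP in OE. All 3 lines were under puromycin selection, and Scr+Cy, ZIP+Cy and OE+Cy were the same lines exposed for 24 h to a mixture of IFNγ at 100 ng/ml, TNFα at 10 ng/ml and IL-1β at 5 ng/ml. Each line was grown from single clones, so an effect of the vector and a difference between clones cannot be told apart, and in OE neither can the backbone. The labels give each replicate number 1 code, P65 to P68, shared by all 6 groups, without saying what it stands for. Nothing in the labels says that the 4 libraries of a group came from separate cultures, so the p values measure the spread between these libraries, which may be technical.

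Under oxidative or electrophilic stress, KEAP1 is modified, NRF2 protein escapes degradation, pairs with small MAF proteins in the nucleus and binds antioxidant response elements in its target genes. The mRNA levels measured here therefore say nothing directly of the amount or activity of NRF2 protein. β cells are known for low levels of several antioxidant enzymes, and the inflammatory cytokines used here raise nitric oxide and reactive oxygen species in them.

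The microRNA that the ZIP and OE vectors were built to alter is shown with its seed, bases 2 to 8 of the mature strand, in capitals. By qRT-PCR of untreated cells, the paper reports a higher level of it in OE than in Scr, and no change in ZIP. The paper also reports that cytokines raised it over untreated cells in each line, by far the most in Scr and the least in ZIP. RefSeq (GRCm38.p6) places it at chr11:43374435-43374456 on the minus strand.
mmu-miR-146a-5p: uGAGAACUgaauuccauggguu

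A match to this seed was searched in the 3′ UTRs of GENCODE M21 transcripts. All 8 genes had an annotated 3′ UTR and 1 of them, Gclc, held a match, compared with 13.1% of the 15446 genes of the table that had a 3′ UTR. The Gclc match lies at chr9:77794405-77794411 (mm10, plus strand), at base 1154 of a UTR of 1234 bases, and is not followed by an A. It is printed with its flanks, the 7 bases complementary to the seed in capitals.
Gclc 3′ UTR site: tttttttctacAGTTCTCttatgtaaatt

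Because NRF2 target genes are defined by antioxidant response elements, the 250 bases before the start of each gene were searched for TGANNNNGC, a loose form of the core of that element, on both strands. RefSeq promoters (GRCm38.p6) were matched for 6 of the 8 genes, those of Nfe2l2, Keap1, Gclm, Slc7a11, Nqo1 and Srxn1. The promoter set used here held no entry for Hmox1 or Gclc. Of these 6 promoters, 5 held at least 1 match, against 35.2% of 32851 promoters of the same length. Srxn1 held 3 matches and Slc7a11 held 2, while the Nqo1 window held none. These 3 promoters are shown with the matches in capitals and written 5′ to 3′ on the strand of the gene. A match, or the lack of one in these 250 bases, describes these letters only. Bases further upstream were not searched.
Srxn1, chr2:152105274-152105523, plus strand: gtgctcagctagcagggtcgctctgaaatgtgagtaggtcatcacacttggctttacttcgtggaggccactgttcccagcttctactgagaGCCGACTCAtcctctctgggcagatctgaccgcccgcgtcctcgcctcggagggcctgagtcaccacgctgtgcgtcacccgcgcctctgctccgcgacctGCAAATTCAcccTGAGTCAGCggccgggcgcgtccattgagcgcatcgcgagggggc
Slc7a11, chr3:50443614-50443863, minus strand: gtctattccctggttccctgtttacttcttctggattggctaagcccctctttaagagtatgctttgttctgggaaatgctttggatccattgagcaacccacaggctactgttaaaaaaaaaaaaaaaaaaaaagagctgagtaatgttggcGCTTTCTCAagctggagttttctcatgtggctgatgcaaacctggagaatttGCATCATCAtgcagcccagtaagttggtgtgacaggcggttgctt
Nqo1, chr8:107403206-107403455, minus strand: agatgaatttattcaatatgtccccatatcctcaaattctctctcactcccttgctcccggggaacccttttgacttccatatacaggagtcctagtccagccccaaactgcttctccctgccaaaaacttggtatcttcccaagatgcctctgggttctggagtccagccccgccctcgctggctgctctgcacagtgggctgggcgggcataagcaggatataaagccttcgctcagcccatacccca

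The libraries held between 26657792 and 37168232 reads assigned to genes. The β cell identity of the line was visible in every library, with summed levels of 10 β cell markers between 25910 and 52610 CPM, that is read counts scaled to the size of the library, and Ins2 at no less than 8501 CPM. Markers of other cells were low, but 6 fibroblast markers, among them the collagens Col1a1, Col1a2 and Col3a1, summed to 18.9 CPM in Scr replicate 1, 54.0 CPM in ZIP replicate 1 and 58.7 CPM in Scr+Cy replicate 1, against 0.537 to 7.95 CPM in the other 21 libraries, and in the median library Col3a1 and Lum were at 0. The 6 macrophage markers in the table summed to between 0.651 and 4.63 CPM, and the leukocyte gene Ptprc did not exceed 0.422 CPM. Red blood cell markers reached 7.90 CPM in ZIP+Cy replicate 3. Markers of endothelium did not exceed 4.62 CPM and those of muscle and fat 0.730 CPM. The 2 endothelial markers in the table summed to 0.0929 to 0.216 CPM in Scr and 0.655 to 1.54 CPM in OE. With cytokines they summed to 0.758 to 0.893 CPM in Scr+Cy and 1.73 to 4.62 CPM in OE+Cy. Markers of 2 further kinds also moved with the lines. The 2 duct and acinar markers in the table summed to 12.4 to 17.4 CPM in OE and 15.9 to 24.2 CPM in OE+Cy, mostly Krt19, but to no more than 1.11 CPM in any Scr or ZIP library, with or without cytokines. The 4 markers of other islet cells summed to 246.4 to 369.3 CPM in Scr, 101.5 to 304.6 CPM in ZIP and 46.0 to 56.0 CPM in OE. That sum was mostly Gcg, with a median of 133.2 CPM over all libraries, against 0.0748 CPM or less for Sst, Ppy and Ghrl. By the rule given below, 2 of the 4 were called higher and 1 lower in OE compared with Scr, so the sum does not describe each marker. The β cell markers themselves summed to 25910 to 33710 CPM in Scr, 36080 to 39340 CPM in ZIP and 48980 to 52610 CPM in OE. Of these 10, 4 were called higher and 0 lower in ZIP, and 5 higher and 2 lower in OE, beside 14.9% and 25.7% of all genes. Leaving out the 3 libraries with fibroblast markers, an alternative chosen after seeing the data, changed 1 call of the 8 genes, that of Slc7a11 in the OE interaction described below. In bulk libraries, a change in the share of cells of one type and a change in RNA per cell cannot be told apart.

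Mean levels carry the SD over the 4 libraries of a group (n = 4) and are in CPM with TMM-scaled library sizes. Calls between groups needed a change of 1.5-fold or more together with p under 0.05, before adjustment, in the quasi-likelihood test of edgeR. Interactions were called at an adjusted p under 0.05, where the adjustment (Benjamini-Hochberg) took in the 17696 genes tested. Per kilobase of annotated exon, the order of mean levels in Scr cells was Srxn1 (39.3 CPM per kb), Hmox1 (38.5), Gclm (32.5), Keap1 (22.8), Nfe2l2 (8.12), Gclc (6.59), Nqo1 (2.03) and Slc7a11 (0.572). The deposited values were not whole numbers for Slc7a11 in 100% of libraries, for Keap1 in 95.8% and for Gclc in 87.5%, and since how those reads were divided is not given in the sources used here, these levels carry that uncertainty.

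**Figure D1:**
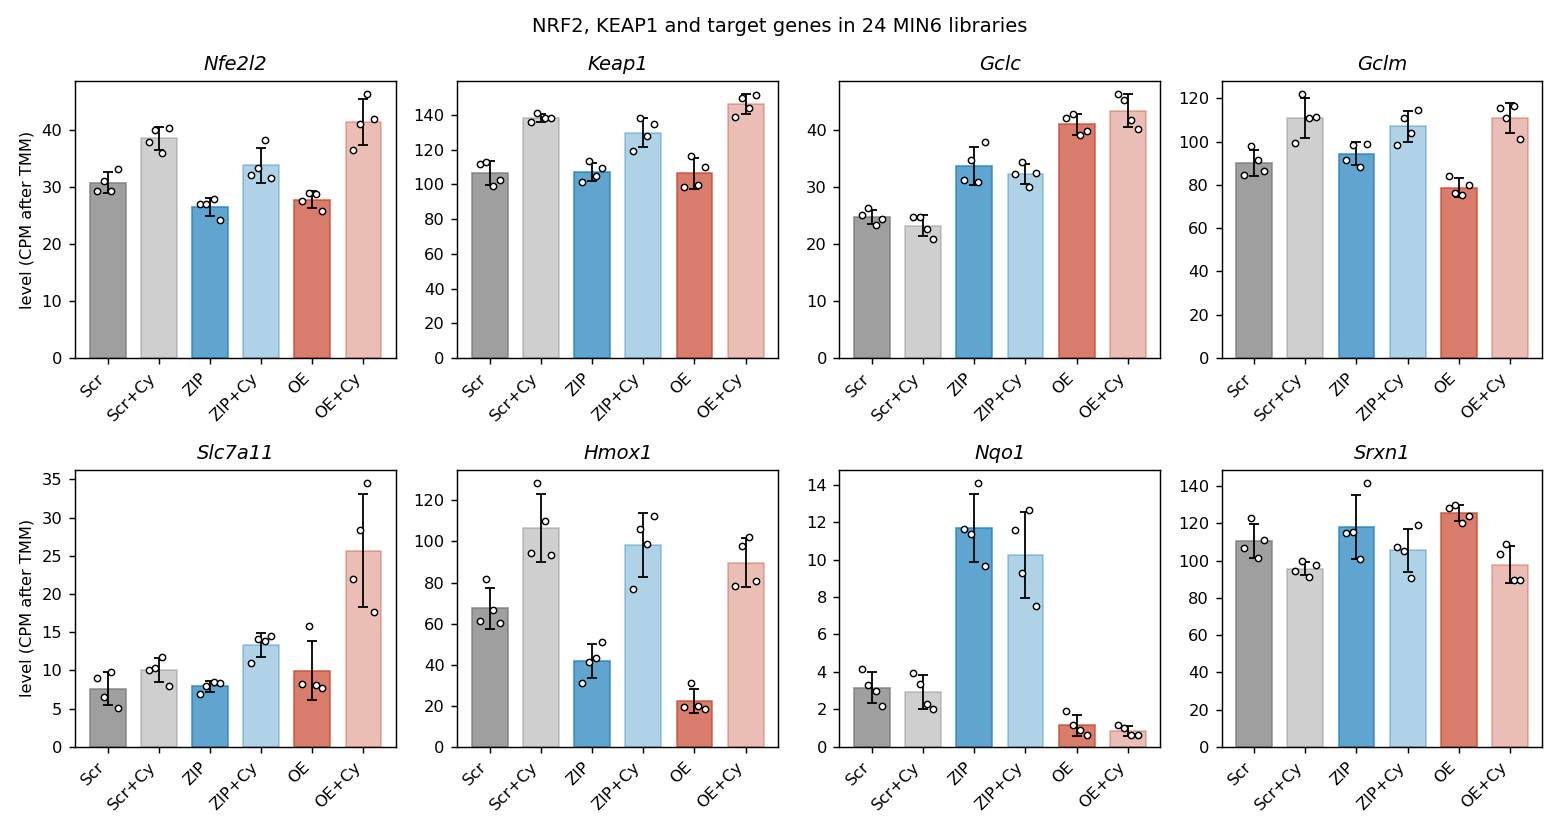
Levels of the 8 genes (CPM after TMM scaling, linear axes from 0) in the 6 groups. Bars are means, error bars are SD and circles are the 4 libraries of a group. Nqo1 lay between 7.55 and 14.1 CPM in all 8 libraries of the ZIP line and between 0.608 and 1.93 CPM in all 8 of the OE line, and Hmox1 libraries of the 3 lines overlapped with cytokines but not without them.

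The first question was whether the lines differed without cytokines. In ZIP compared with Scr cells, 2 of the 8 genes were called, Nqo1 higher and Hmox1 lower, while 14.9% of all genes were called in that comparison. In OE compared with Scr cells, 3 were called, Gclc higher and both Nqo1 and Hmox1 lower, against 25.7% of all genes. The median log2 fold change of the 8 genes was 0.06 in ZIP and −0.08 in OE, beside 0 for all genes in each. Both comparisons share the Scr libraries. The endothelial, duct, islet and β cell markers given above moved with the OE line too, and their part in the OE results was not tested.

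Nfe2l2 (chr2:75675513-75704663, mm10) was not called in either line. Its levels in Scr cells were 29.4, 31.2, 29.4 and 33.3 CPM (30.8 ± 1.85 CPM), compared with 27.1, 27.1, 27.9 and 24.3 CPM in ZIP (26.6 ± 1.56 CPM) and 27.6, 28.9, 28.9 and 25.9 CPM in OE (27.8 ± 1.44 CPM). The libraries of neither line overlapped with those of Scr, which also held for 27.2% of all genes in ZIP and 46.5% in OE. The log2 fold change was −0.21 (SE 0.073, adjusted p = 0.0299) in ZIP and −0.15 (SE 0.072, adjusted p = 0.0958) in OE, both under the fold limit. Levels of Keap1 (chr9:21229730-21239332) overlapped in the 3 lines, at 106.5 ± 6.72 CPM in Scr, 107.1 ± 5.19 CPM in ZIP and 106.3 ± 8.66 CPM in OE.

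Nqo1 (chr8:107388225-107403205, mm10), which encodes a quinone reductase and is among the most widely used readouts of NRF2, moved in opposite directions in the 2 modified lines. Its levels were 4.15, 3.31, 3.0 and 2.17 CPM in Scr cells (3.16 ± 0.821 CPM). They were 11.6, 11.4, 14.1 and 9.68 CPM in ZIP cells (11.7 ± 1.82 CPM). In OE cells they were 1.93, 1.14, 0.911 and 0.622 CPM (1.15 ± 0.563 CPM). Every ZIP library was above, and every OE library below, every Scr library. The rise in ZIP was 3.69-fold (log2 fold change 1.88, SE 0.25, adjusted p = 2.3e-06) and the fall in OE was 2.74-fold (log2 fold change −1.45, SE 0.28, adjusted p = 0.000145). The OE values rest on few reads, with a median of 37.5 per library, compared with 105.5 in Scr and 315 in ZIP. The 91 genes within 5 Mb of Nqo1 with a mean of at least 10 CPM had median log2 fold changes of −0.00 in ZIP and 0.05 in OE.

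Hmox1 (chr8:75093618-75100593), which encodes the inducible heme oxygenase that breaks down heme, was lower in both modified lines. It was at 61.2, 81.6, 66.8 and 60.1 CPM in Scr cells (67.4 ± 9.89 CPM). In ZIP cells it was at 31.1, 41.4, 43.1 and 51.0 CPM (41.7 ± 8.17 CPM), and in OE cells at 19.3, 30.9, 19.6 and 18.6 CPM (22.1 ± 5.89 CPM). The 3 groups did not overlap, with Scr highest and OE lowest. The fall was 1.62-fold in ZIP (log2 fold change −0.69, SE 0.16, adjusted p = 0.00201) and 3.04-fold in OE (log2 fold change −1.60, SE 0.17, adjusted p = 1.84e-08). Without ZIP replicate 1, which held fibroblast markers and the lowest Hmox1 level of its group, the log2 fold change in ZIP was −0.58 and no longer passed the fold limit, whereas the calls were the same when that library was left out together with Scr and Scr+Cy replicate 1. The 80 neighbours of Hmox1 within 5 Mb had median log2 fold changes of −0.17 in ZIP and −0.09 in OE. In ZIP 22 of them were above 0, with 1 called higher and 10 lower, beside 14.9% of all genes called. In OE 33 were above 0, with 3 called higher and 11 lower, beside 25.7% of all genes. Their part in the Hmox1 difference was not tested.

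Gclc encodes the catalytic subunit of glutamate-cysteine ligase, the enzyme that limits glutathione synthesis, and Gclm (chr3:122245557-122267215) encodes its modifier subunit. Gclc was at 25.1, 26.3, 23.4 and 24.4 CPM in Scr (24.8 ± 1.22 CPM), at 31.2, 34.9, 31.0 and 37.9 CPM in ZIP (33.7 ± 3.29 CPM) and at 42.2, 42.9, 39.1 and 39.9 CPM in OE (41.0 ± 1.82 CPM). The 3 groups did not overlap, in the order Scr, ZIP, OE. The rise was 1.65-fold in OE (log2 fold change 0.72, SE 0.070, adjusted p = 5.16e-09), and in ZIP the level was 1.36-fold higher (0.44, SE 0.071, adjusted p = 3e-05), which did not reach the fold limit. Gclm did not follow Gclc. Its level was 90.2 ± 5.91 CPM in Scr, 94.3 ± 5.31 CPM in ZIP and 78.8 ± 4.17 CPM in OE, with log2 fold changes of 0.06 (adjusted p = 0.518) and −0.20 (adjusted p = 0.0166), neither of them called.

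The Gclc difference stood within a stretch of chromosome 9 whose genes were higher in both modified lines. Of 27 other genes within 5 Mb of Gclc (chr9:77754535-77794489, mm10) with a mean of at least 10 CPM, 18 were called in ZIP and 21 in OE, all of them higher, against 14.9% and 25.7% of all genes called in either direction. Their median log2 fold change was 0.73 in each line, compared with 0.44 and 0.72 for Gclc, which ranked 22 of 28 from the highest in ZIP and 15 of 28 in OE. Among the nearest genes, the fatty acid elongase Elovl5 had log2 fold changes of 0.86 and 1.03, Lrrc1 of 1.08 and 0.86, and the translation factor Eef1a1 of 0.44 and 0.61. The part of this neighbourhood in the Gclc difference was not tested. With cytokines the median log2 fold changes of the 27 genes were −0.01 in Scr, −0.03 in ZIP and −0.02 in OE, with single genes called in both directions. In Scr 1 gene was called higher, in ZIP 1 higher and 1 lower, and in OE 1 higher and 3 lower, and Cgas, at 0.68 in Scr and 1.01 in ZIP, is named here after its values were seen.

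**Figure D2:**
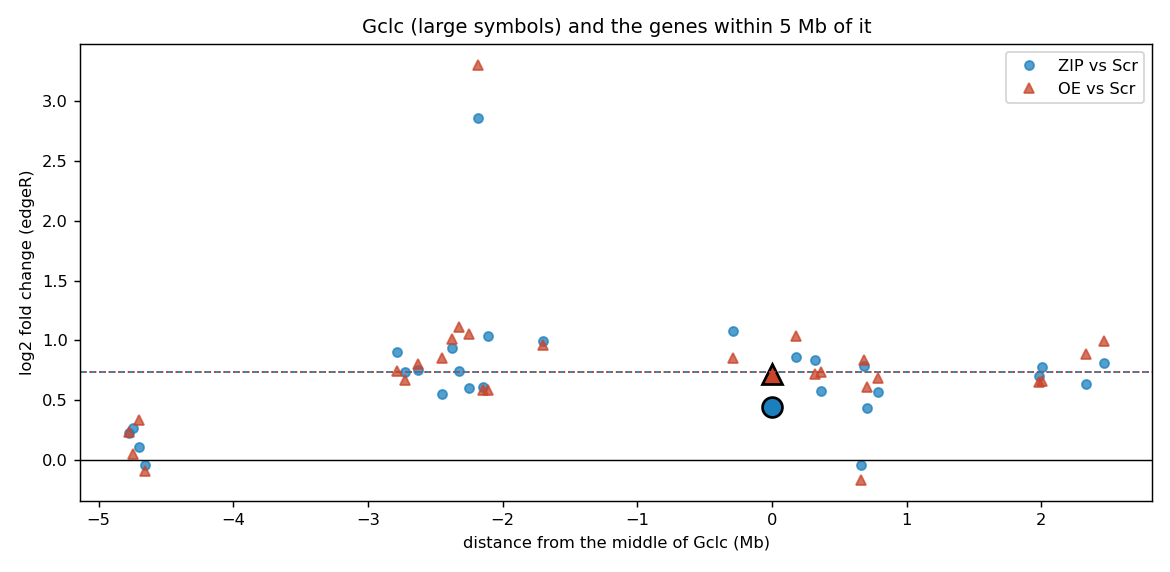
Log2 fold change (edgeR) of Gclc (large outlined symbols) and of the 27 other genes within 5 Mb of it with a mean of at least 10 CPM, by distance in Mb from the middle of Gclc. Circles are ZIP compared with Scr, triangles are OE compared with Scr, and the broken lines are the medians without Gclc, 0.73 in each. Most neighbours lay above 0, and Gclc was below the median in ZIP and near it in OE.

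Slc7a11 (chr3:50364936-50443613), the cystine-importing subunit of the system that feeds glutathione synthesis, and Srxn1 (chr2:152105524-152111376), the sulfiredoxin that restores overoxidized peroxiredoxins, were not called between lines without cytokines. The Slc7a11 level in Scr, ZIP and OE cells was 7.61 ± 2.20, 7.93 ± 0.735 and 9.99 ± 3.92 CPM, and in OE replicate 2 stood at 15.9 CPM with the other libraries between 7.73 and 8.22 CPM. Srxn1 was at 110.5 ± 9.16 CPM, 118.1 ± 17.0 CPM and 125.6 ± 4.44 CPM. The libraries of these groups overlapped for both genes.

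The next question was how the genes responded to cytokines within each line. In Scr cells 1 of the 8 genes was called (Hmox1), against 10.6% of all genes. In ZIP cells 2 were called (Hmox1 and Slc7a11), against 12.5%, and the same pair was called in OE cells, against 21% of all genes. All of these calls were higher with cytokines. By adjusted p value alone, without the fold limit, 4 genes passed in Scr, 5 in ZIP and 6 in OE, all higher with cytokines except Srxn1 in OE. Of all genes, 17.8%, 26.4% and 44.6% passed in the same comparisons. With replicate number as a block in edgeR, Srxn1 in Scr passed as well, and it was lower with cytokines (adjusted p = 0.0372). The median log2 fold change of the 8 genes was 0.31, 0.23 and 0.48, beside 0.00, −0.01 and 0.02 for all genes.

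The regulator and its inhibitor both stood higher with cytokines in each line, by less than 1.5-fold. Nfe2l2 reached 38.0, 40.1, 36.0 and 40.4 CPM in Scr+Cy (38.6 ± 2.07 CPM), 32.2, 33.3, 38.3 and 31.6 CPM in ZIP+Cy (33.8 ± 3.02 CPM) and 36.6, 41.1, 46.4 and 42.1 CPM in OE+Cy (41.5 ± 4.01 CPM). In each line the treated and untreated libraries did not overlap, which also held for 21.2%, 26.2% and 40.2% of all genes in Scr, ZIP and OE. The log2 fold changes were 0.33 (SE 0.072, adjusted p = 0.00192), 0.35 (SE 0.073, adjusted p = 0.000836) and 0.58 (SE 0.072, adjusted p = 4.68e-07). The last corresponds to 1.49-fold and passed the limit without OE replicate 2 (log2 fold change 0.60), without OE replicate 3 (0.60) and without OE+Cy replicate 1 (0.63). In the treated Scr, ZIP and OE lines Keap1 reached 138.5 ± 2.26, 129.9 ± 8.30 and 146.2 ± 5.75 CPM, again with no overlap with untreated libraries of the line. Its log2 fold changes were 0.38, 0.28 and 0.46, with adjusted p values of 3.29e-05, 0.000902 and 6.53e-07. Gclm was higher as well, with log2 fold changes of 0.30 in Scr, 0.18 in ZIP and 0.50 in OE and adjusted p values of 0.00199, 0.0437 and 1.35e-06.

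Hmox1 gave the largest cytokine response of the 8 genes in all 3 lines, and the response differed between lines. Its levels were 94.4, 128.5, 110 and 93.2 CPM in Scr+Cy (106.5 ± 16.5 CPM). They were 76.8, 106.0, 98.6 and 112.6 CPM in ZIP+Cy (98.5 ± 15.6 CPM) and 78.1, 97.7, 102.1 and 80.8 CPM in OE+Cy (89.7 ± 11.97 CPM). The treated groups overlapped with each other, unlike the untreated ones. The rise was 1.58-fold in Scr (log2 fold change 0.66, SE 0.16, adjusted p = 0.00438), 2.36-fold in ZIP (1.24, SE 0.16, adjusted p = 2.53e-06) and 4.05-fold in OE (2.02, SE 0.17, adjusted p = 7.2e-10).

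For libraries that share a replicate number within a line, the ratio of treated to untreated Hmox1 was between 1.54 and 1.65 in Scr, between 2.21 and 2.56 in ZIP and between 3.16 and 5.20 in OE. These ranges are a description only, as they were not computed over all genes. The interaction in the same model gave a response larger by 1.36 on the log2 scale in OE than in Scr (SE 0.23, adjusted p = 0.0002). The corresponding difference for ZIP was 0.58 (SE 0.23, unadjusted p = 0.0173, adjusted p = 0.654) and was not called. With replicate number as a block in edgeR it was again not called (unadjusted p = 0.00177, adjusted p = 0.189). Without Scr+Cy replicate 2, the highest library of its group, the response in Scr cells was 0.56 on the log2 scale and fell below the fold limit.

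Slc7a11 was called with cytokines in ZIP and OE cells but not in Scr cells. It was at 8.98, 6.56, 9.85 and 5.05 CPM in Scr and at 10.0, 10.3, 11.8 and 8.02 CPM in Scr+Cy (10.0 ± 1.55 CPM), and the libraries of these groups overlapped. In ZIP+Cy it was at 10.9, 14.1, 13.9 and 14.5 CPM (13.3 ± 1.62 CPM), with no overlap with ZIP. In OE+Cy it was at 22.03, 28.4, 34.6 and 17.7 CPM (25.7 ± 7.39 CPM), above every OE library. The log2 fold change was 0.40 in Scr (SE 0.23, adjusted p = 0.265, not called), 0.75 in ZIP (SE 0.23, adjusted p = 0.0168) and 1.36 in OE (SE 0.22, adjusted p = 1.79e-05). The interaction was 0.96 for OE compared with Scr (SE 0.32, adjusted p = 0.0339) and 0.35 for ZIP (SE 0.32, adjusted p = 0.916). The OE interaction was not called when the 3 libraries with fibroblast markers were left out (0.87, adjusted p = 0.101). It was also lost, at values between 0.76 and 0.89, when Scr replicate 1 or 3, OE replicate 1, 3 or 4, Scr+Cy replicate 4 or OE+Cy replicate 2 or 3 was left out, and over all alternatives its adjusted p lay between 0.00188 and 0.101.

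Across the 8 genes, 0 were called in the interaction of ZIP with Scr by edgeR and 0 by DESeq2, where 0.0565% of all genes were called by edgeR, and 1 of them, Hmox1, had an unadjusted p value under 0.05. In the interaction of OE with Scr 2 were called, Hmox1 and Slc7a11, against 20% of all genes. For Nfe2l2 that interaction was 0.25 (SE 0.10, adjusted p = 0.0839) in edgeR and was called only by DESeq2 (adjusted p = 0.0486) and without OE+Cy replicate 1 (0.31, adjusted p = 0.0243).

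Srxn1 and Nqo1 had lower means with cytokines in all 3 lines, and neither was called. In the treated Scr, ZIP and OE lines Srxn1 was at 95.7 ± 3.63, 105.5 ± 11.7 and 97.9 ± 9.85 CPM. Its log2 fold changes were −0.21 (adjusted p = 0.117), −0.16 (adjusted p = 0.194) and −0.36 (SE 0.089, adjusted p = 0.00179). With the replicate block in edgeR its adjusted p values were 0.0372, 0.0835 and 0.000157. Its treated and untreated libraries did not overlap in Scr and OE and overlapped in ZIP. The ratio of treated to untreated Srxn1 was below 1 for each of the 4 replicate numbers in each line, from 0.720 to 0.937. Nqo1 was at 2.91 ± 0.904, 10.3 ± 2.30 and 0.842 ± 0.266 CPM in the same order, with log2 fold changes of −0.12, −0.19 and −0.47 and adjusted p values of 0.817, 0.605 and 0.271. Gclc responded little, with log2 fold changes between −0.10 and 0.08 and adjusted p values of at least 0.368.

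**Figure D3:**
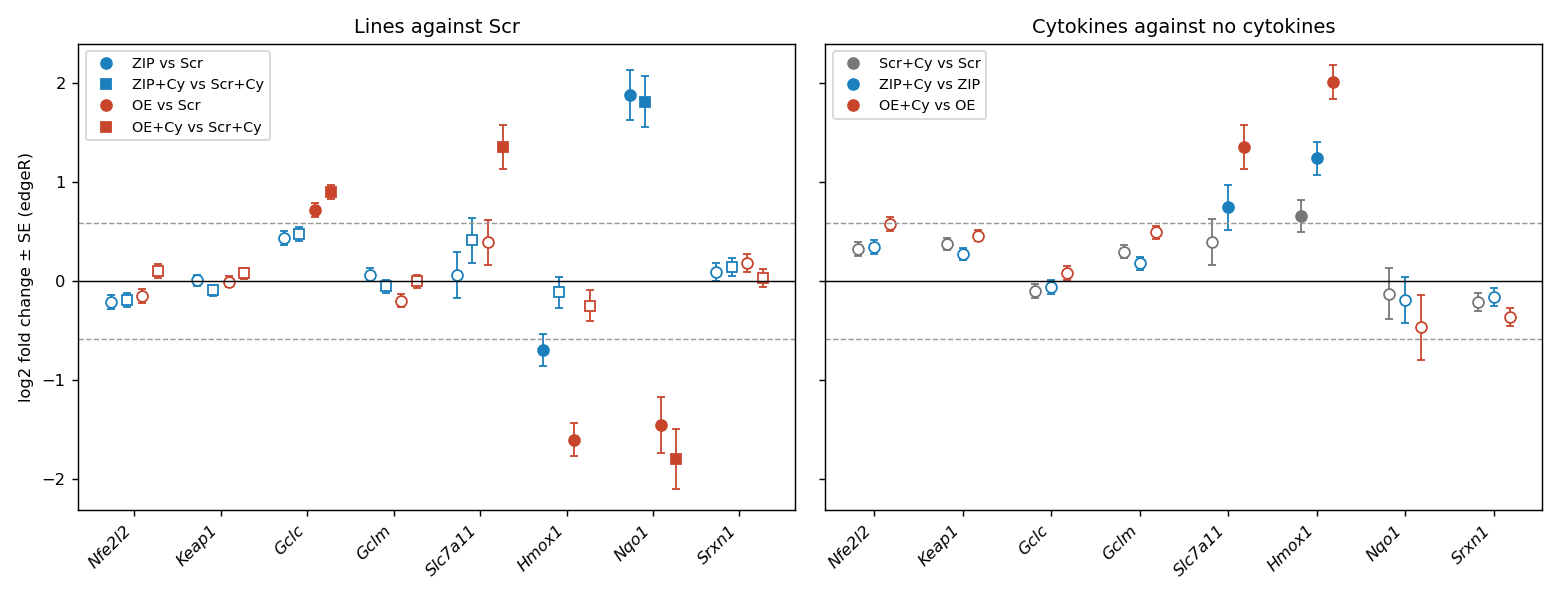
Log2 fold change ± SE (edgeR) of the 8 genes. The left panel compares ZIP and OE with Scr, without (circles) and with cytokines (squares), and the right panel compares treated with untreated cells of each line. Filled symbols were called and broken lines mark a fold change of 1.5. The Hmox1 response was 0.66 in Scr, 1.24 in ZIP and 2.02 in OE, and Nqo1 lay on opposite sides of 0 in ZIP and OE.

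Under cytokines, the lines were compared again. In ZIP+Cy compared with Scr+Cy, 1 of the 8 genes was called, Nqo1, with 15.8% of all genes called. The Nqo1 level was 3.52-fold higher (log2 fold change 1.82, SE 0.25, adjusted p = 4.9e-06). In OE+Cy compared with Scr+Cy, 3 were called, against 28.5% of all genes, namely Nqo1 lower (3.47-fold, log2 fold change −1.79, SE 0.30, adjusted p = 2.47e-05), Gclc higher (0.90, SE 0.071, adjusted p = 1.31e-10) and Slc7a11 higher (1.36, SE 0.22, adjusted p = 1.42e-05). Hmox1 was not called in either, at −0.11 (adjusted p = 0.65) and −0.25 (adjusted p = 0.195). The neighbours of Gclc again stood higher, with median log2 fold changes of 0.73 in ZIP+Cy and 0.76 in OE+Cy.

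Taking untreated Scr cells as the reference for both changes together, 2 genes were called in ZIP+Cy (Nqo1 at 1.69 and Slc7a11 at 0.81), against 21.7% of all genes, and 3 in OE+Cy (Nqo1 at −1.92, Slc7a11 at 1.75 and Gclc at 0.81), against 34.2%. These comparisons share the Scr libraries with those above. In the order of group means, Slc7a11 was highest in OE+Cy with no overlap with ZIP+Cy, the next group, while the libraries of each other neighbouring pair in its order overlapped. In the order of Srxn1 all neighbouring pairs overlapped.

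The genes did not move as 1 block over the 24 libraries. As a description over libraries that share 6 group means, Pearson correlations of log2 CPM among the 28 pairs ranged from −0.79 for Nfe2l2 with Srxn1 to 0.86 for Gclm with Hmox1. Nfe2l2 and Keap1 had r = 0.84, and Nqo1 had r between −0.37 and 0.15 with the other genes. Among 12669 genes with a mean of at least 1 CPM, those most like Nqo1 were Myrip (r = 0.98) and Bcam (0.97), and Myrip, which links insulin granules to myosin, had mean levels of 1.06, 12.8 and 0.0567 CPM in Scr, ZIP and OE. Those most like Slc7a11 were Sqstm1 (0.95) and Larp1 (0.92), and those most like Hmox1 were Tmem106a (0.96) and Optn (0.95). Zbtb5 and Trim14 were most like Nfe2l2, Usf1 and Zfp296 most like Keap1, Klc3 and Ryr2 most like Gclc, Aida and Tnfrsf1a most like Gclm, and Plpp1 and Sstr3 most like Srxn1, with r between 0.89 and 0.97.

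Among 15 partners and regulators of NRF2, all in the table, 0 were called in ZIP compared with Scr by edgeR and by DESeq2, with 5 at an unadjusted p value under 0.05, and 3 were called in OE compared with Scr, against 14.9% and 25.7% of all genes. In OE the E3 ligase adaptor Btrc, which can also mark NRF2 for degradation, was 2.00-fold lower (log2 fold change −1.001, SE 0.058, adjusted p = 5.53e-13). The E3 ligase Syvn1 and the small MAF gene Mafk were higher (0.67 and 0.62, adjusted p = 3.43e-05 and 2.2e-05). With cytokines, Mafk and Maff, which encode dimerization partners of NRF2, rose in all 3 lines, with log2 fold changes of 0.84, 1.28 and 1.85 for Mafk and of 0.95, 1.04 and 0.97 for Maff in Scr, ZIP and OE. Bach2, a repressor that competes for the same elements, fell in all 3, with log2 fold changes of −0.70, −0.87 and −1.42. Syvn1, higher in OE than in Scr without cytokines, fell 1.77-fold in OE with them (adjusted p = 2.87e-06). Sqstm1, whose product p62 can sequester KEAP1 and is itself an NRF2 target, rose 1.57-fold in ZIP (adjusted p = 5.03e-05) and 1.99-fold in OE (adjusted p = 5.84e-08). In the counts of calls, 3 of the 15 were called with cytokines in Scr, 4 in ZIP and 6 in OE, while the share of all genes called was 10.6%, 12.5% and 21%. In OE+Cy compared with Scr+Cy, 3 of the 15 were called higher and 2 lower, beside 28.5% of all genes. There Bach1 was higher (log2 fold change 0.75, adjusted p = 1.25e-06) and Bach2 lower (−0.68, adjusted p = 0.00749).

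The 35 other NRF2 target genes in the table did not move in 1 direction between lines. In ZIP compared with Scr, 2 were called higher and 3 lower (14.3% of the list, near the 14.9% of all genes), with a median log2 fold change of 0.00. The multidrug transporter Abcc1 was 2.02-fold lower (adjusted p = 3.33e-12), whereas the glutathione transferase Gsta4 and Osgin1 were higher (1.63 and 0.81 on the log2 scale). In OE compared with Scr, 7 were called higher and 8 lower (42.9% of the list, beside 25.7% of all genes), with a median of −0.07. The glutathione peroxidase Gpx2 was at 7.41 ± 1.54 CPM in OE and 0.167 ± 0.0382 CPM in Scr (adjusted p = 8.17e-14), and catalase (Cat) was at 0.227 ± 0.170 CPM in OE and 6.62 ± 1.39 CPM in Scr (adjusted p = 2.66e-12). The glutathione transferase Gstm1 was 2.80-fold lower in OE (adjusted p = 1.69e-08). With cytokines, 3 were called in Scr, 5 in ZIP and 8 in OE, all of them higher. These are 8.57%, 14.3% and 22.9% of the list, near the 10.6%, 12.5% and 21% of all genes called. The transporter gene Abcc4 was among them in every line, at 58.0 ± 2.697 and 112.8 ± 15.3 CPM in Scr and Scr+Cy, 54.2 ± 3.02 and 112.0 ± 6.80 CPM in ZIP and ZIP+Cy, and 62.1 ± 10.9 and 262.2 ± 34.7 CPM in OE and OE+Cy.

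Of 14 further glutathione genes, Gpx1, the cytosolic glutathione peroxidase, was called with cytokines in each line, with log2 fold changes of 0.97, 1.09 and 0.63. It was also higher in ZIP (0.62, adjusted p = 1.74e-06) and lower in OE (−0.65, adjusted p = 4.58e-07) than in Scr. With cytokines, 2 of the 14 were called in Scr, 1 of them lower, 1 in ZIP and 2 in OE. These are 14.3%, 7.14% and 14.3% of the list, beside 10.6%, 12.5% and 21% of all genes. Between untreated lines, 2 of the 14 were called in ZIP, both higher, and 3 in OE, 1 of them higher. That is 14.3% and 21.4% of the list beside 14.9% and 25.7% of all genes. Glrx, a glutaredoxin, was 1.77-fold lower in OE (adjusted p = 1.08e-09). Of 18 heme and iron genes, 1 was called with cytokines in Scr, 2 in ZIP and 4 in OE (5.56%, 11.1% and 22.2% of the list, beside 10.6%, 12.5% and 21% of all genes). Slc11a2, which encodes the iron importer DMT1, rose 3.64-, 5.09- and 4.64-fold, and Alas1, the first enzyme of heme synthesis, was called in ZIP (1.96-fold) and OE (1.92-fold). In OE compared with Scr, the iron exporter Slc40a1 was 2.61-fold higher (adjusted p = 2.77e-10) and Blvra, one of the enzymes that act on the product of heme oxygenase, was 2.07-fold lower (adjusted p = 2.26e-12). The list medians of these 2 lists lay between −0.10 and 0.10 in the comparisons named here.

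Because Slc7a11 is also a target of ATF4, the transcription factor of the integrated stress response, 21 genes were counted beside it. These are targets of ATF4, together with Atf4 itself. The list was chosen with earlier results of these data known. In OE+Cy compared with Scr+Cy, 15 were called higher and 1 lower (76.2% of the list, beside 28.5% of all genes), with a median log2 fold change of 0.91 beside 0.01 for all genes. Atf3 was 8.09-fold higher (adjusted p = 3.6e-13), the pseudokinase gene Trib3 3.33-fold (adjusted p = 6.42e-06) and the cationic amino acid transporter gene Slc7a3 3.40-fold (adjusted p = 8.36e-07), while Vldlr was 1.78-fold lower (adjusted p = 0.000209). In ZIP+Cy compared with Scr+Cy, 4 were called, all of them higher (19.05% of the list, beside 15.8% of all genes), with a median of 0.36. The interaction of OE with Scr was called for 13 of the 21, all with a larger response in OE, beside 20% of all genes, and that of ZIP with Scr for 0 by edgeR and by DESeq2, with 2 at an unadjusted p value under 0.05. In Scr cells with cytokines the median of the list was −0.33, with 1 called higher (Atf3) and 3 lower, beside 10.6% of all genes called. In OE cells with cytokines the median was 0.28, with 7 called higher and 1 lower (38.1% of the list, beside 21% of all genes). The interaction thus joins a rise in OE with a fall in Scr. Without cytokines, 3 were called higher and 2 lower in OE compared with Scr (23.8%, beside 25.7% of all genes). OE replicate 2, the highest OE library for Slc7a11 and Hmox1, was also the highest of the 4 for 21 of the 21 genes, as it was for 23.0% of the 12230 genes with a mean of at least 1 CPM in OE. The part of this list in the Slc7a11 and Hmox1 results was not tested.

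**Figure D4:**
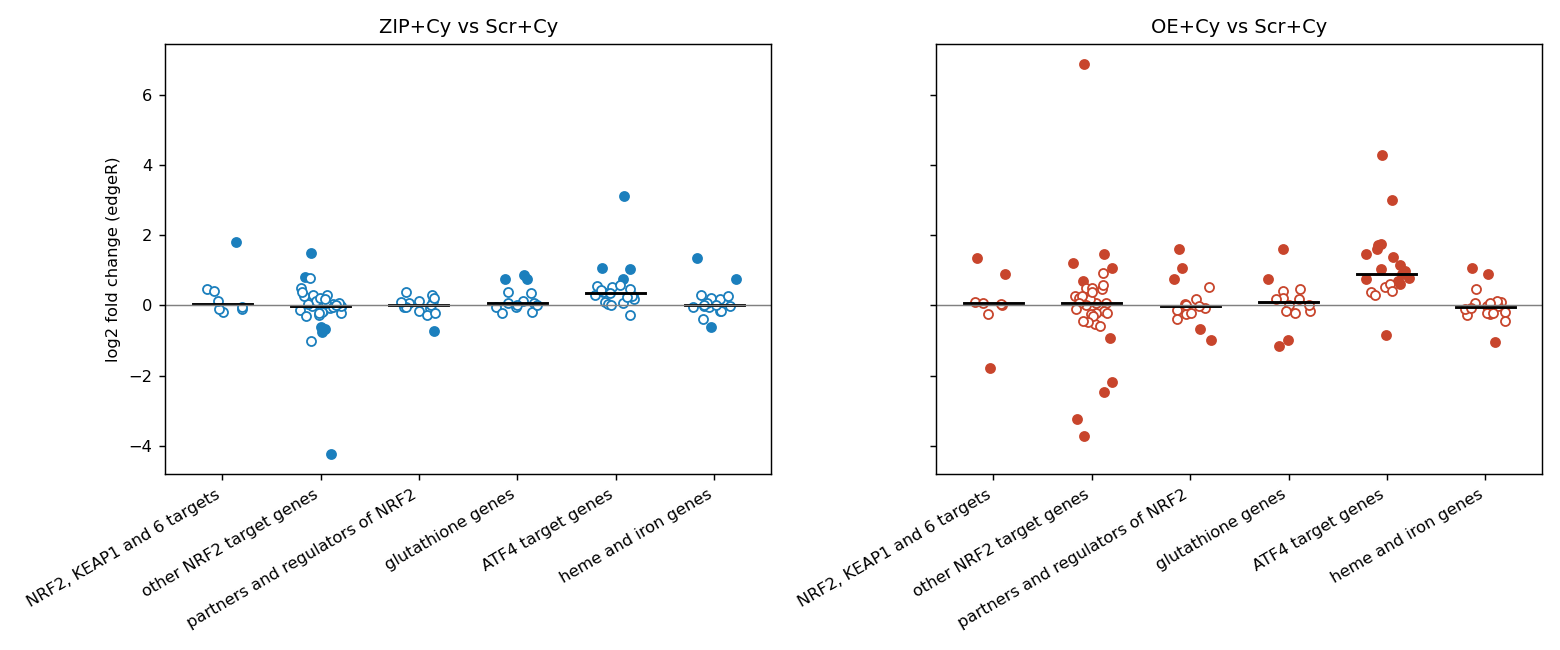
Log2 fold change (edgeR) of NRF2, KEAP1 and the 6 targets and of the genes of 5 pathway lists, in ZIP+Cy (left) and OE+Cy (right) compared with Scr+Cy. Each circle is a gene, filled where called, black lines are medians, and the horizontal position within a list carries no meaning. The ATF4 target list, which includes Atf4 itself, had a median of 0.36 on the left and 0.91 on the right. The other lists had medians between −0.05 and 0.11. Some genes, such as Chac1, Slc3a2, Gsr, Sqstm1 and Fth1, are in more than 1 list.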

How the data were processed

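Bulk mRNA libraries of MIN6 lines were sequenced on a NovaSeq. The study's methods describe FastQC for read quality, STAR for alignment (mm10) and Partek Flow for assignment to RefSeq transcripts, and the submitters' processing notes name STAR 2.7.8a and Partek 11.0.24.0204, whereas the methods give other, earlier versions of both, and which were used for the deposited table is not known. The quantification method and its use of strand are not given in the sources used here. The authors deposited estimated counts per gene, not normalized, of which 30.3% were not whole numbers. The methods state that genes under 10 reads were removed, and no gene in the table had fewer than 10 over all libraries. A normalized table was not used. The counts were rounded, and all 17696 genes of 24 libraries were fitted as 6 group means in edgeR 4.0.16 (R 4.3.3, TMM, glmQLFit and glmQLFTest). Calls followed the study's thresholds (1.5-fold or more, with p under 0.05 before adjustment), and an interaction was called at a Benjamini-Hochberg adjusted p under 0.05. The SE is the log2 fold change divided by the square root of F. On simulated data the script was tested for recovery of known changes.

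The 8 genes and the gene lists were chosen with earlier results of these data known. The lists share some genes, so their counts are not of separate genes. Named beside them are, per list and comparison, up to 3 called genes that changed most each way and had 1 CPM or more on average in either group (not all of these are named), the 2 genes most correlated with each of the 8, and neighbours of Gclc, chosen after their values were seen. Replicate numbers, which the labels share across groups, paired the libraries (correlation of deviations from group means over 12670 genes above 0.1 for every number) within each line (0.162 to 0.626) and for ZIP with Scr (0.141 to 0.634) and ZIP+Cy with Scr+Cy (0.191 to 0.37), but not for OE with Scr (−0.129 to 0.295).

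The alternatives were DESeq2 1.42.0, its size factors in edgeR, filterByExpr, only the groups compared, the replicate block, adjusted p values and leaving out each library. Depth was 26657792 to 37168232 assigned reads per library. miR-146a-5p itself was not analysed here.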

Additional observations from a re-analysis of the deposited data

Results flagged for a closer look

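In OE cells, replicate 2 lay far above the other libraries of its group for both Slc7a11 (15.9 CPM, with the others between 7.73 and 8.22 CPM) and Hmox1 (30.9 CPM, with the others between 18.6 and 19.6 CPM). The same library was the highest of the 4 OE libraries for 21 of the 21 genes of the ATF4 list, Atf4 included. It was the highest for 23.0% of the 12230 genes with a mean of at least 1 CPM in OE. Among the 21 were Trib3 (38.5 CPM, compared with 11.8, 18.2 and 15.5 CPM) and Chac1 (58.8 CPM, compared with 27.4, 28.8 and 26.7 CPM). Without it, the calls of Slc7a11 and Hmox1 in OE+Cy compared with OE and in the OE interaction were kept. In ZIP+Cy cells, replicate 1 was far below the others for Slc7a11 (10.9 CPM, with the others between 13.9 and 14.5 CPM). Of 48 groups of 4 libraries checked, chance alone would single out about 2.4.

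The cytokine response differed between OE and Scr cells for Hmox1, by 1.36 on the log2 scale, and for Slc7a11, by 0.96, in the interaction test of edgeR (adjusted p = 0.0002 and 0.0339). The Hmox1 difference was called under every alternative, with values between 1.25 and 1.59 and adjusted p values between 9.51e-08 and 0.000761. The cause was not tested.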

How the results depend on the processing

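Of the calls of the 8 genes, all kept their direction under every alternative. The calls lost were Hmox1 in ZIP compared with Scr without ZIP replicate 1, Hmox1 in Scr+Cy compared with Scr without Scr+Cy replicate 2, and Slc7a11 in the OE interaction. When single libraries were left out, the number of genes called ranged from 1 to 2 in ZIP compared with Scr, from 0 to 1 in Scr+Cy compared with Scr, from 2 to 3 in OE+Cy compared with OE and in ZIP+Cy compared with Scr, and from 1 to 3 in the OE interaction, which also fell to 1 (Hmox1) when only the groups compared were fitted (Slc7a11 adjusted p = 0.0743) and when the 3 libraries with fibroblast markers were left out, an alternative chosen after seeing the data. The cause was not tested. The replicate block changed no call of the 8 genes (Slc7a11 in the OE interaction, adjusted p = 0.0125), but over all genes it raised the calls in the ZIP interaction from 10 to 45, and DESeq2 raised them to 41.

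The values that changed sign were all uncalled. Keap1 in OE compared with Scr was 0.008 with DESeq2 and with its size factors, 0.001 with filterByExpr and 0.019 without the 3 libraries with fibroblast markers, and Gclm in OE+Cy compared with Scr+Cy was −0.048 without those 3 libraries. When single libraries were left out, the ranges that reached or crossed 0 were −0.046 to 0.030 for Keap1 in OE and −0.020 to 0.037 in ZIP, −0.091 to 0.227 for Slc7a11 and −0.003 to 0.168 for Srxn1 in ZIP, −0.312 to 0.039 for Nqo1 in Scr+Cy compared with Scr, −0.184 to 0.004 for Hmox1 in ZIP+Cy compared with Scr+Cy, −0.048 to 0.051 for Gclm and −0.014 to 0.081 for Srxn1 in OE+Cy compared with Scr+Cy, and −0.129 to 0.000 for Srxn1 in ZIP+Cy compared with Scr. In the ZIP interaction they were −0.018 to 0.144 for Srxn1, −0.042 to 0.056 for Nfe2l2, −0.230 to 0.120 for Nqo1 and −0.016 to 0.095 for Gclc, and in the OE interaction −0.535 to 0.014 for Nqo1. Depth limited Nqo1 most, with 19 reads in its lowest library.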
